A study of Mus musculus with 16 samples.

Results

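The genes described here are 9 transcription factors and coactivators that set the phenotype of vascular smooth muscle cells: Myocd, Srf, Mrtfa, Mrtfb, Klf4, Klf5, Mef2c, Tcf21 and Foxc2. They were picked by symbol from a named list, matched through the Ensembl identifiers of the count table. The rule uses no measured value, but the list was drawn up with earlier results of these data known. All 9 were among the 52636 genes in the table, and all 9 passed the filter on low counts, which left 17125 genes for testing. On GRCm38 the annotation placed Myocd (ENSMUSG00000020542.18) at chr11:65176561-65269989 on the minus strand, Srf (ENSMUSG00000015605.5) at chr17:46548329-46556175 on the minus strand, Mrtfa (ENSMUSG00000042292.16) at chr15:81012281-81190757 on the minus strand. It placed Mrtfb (ENSMUSG00000009569.14) at chr16:13256481-13417529 on the plus strand, Klf4 (ENSMUSG00000003032.8) at chr4:55527143-55532466 on the minus strand, Klf5 (ENSMUSG00000005148.7) at chr14:99298691-99315036 on the plus strand. The remaining 3 were Mef2c (ENSMUSG00000005583.16) at chr13:83504034-83667080 on the plus strand, Tcf21 (ENSMUSG00000045680.8) at chr10:22817281-22820174 on the minus strand, Foxc2 (ENSMUSG00000046714.7) at chr8:121116171-121118895 on the plus strand. All values are sums over a gene's exons, and each factor is a protein-coding gene.

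Total RNA of mouse descending thoracic aorta, the part in the chest below the arch, was sequenced in 16 libraries. The groups were C57BL/6J control, C57BL/6J with angiotensin II (AngII), 129S6/SvEvTac control and 129S6/SvEvTac with AngII, with 4 libraries in each. AngII, a vasoconstrictor peptide, was used to induce hypertension, and its dose and duration, like the age of the mice and the treatment of the controls, are not stated in the labels. Nothing in them ties the libraries of a group to separate mice. The p-values then cover only the variation among these libraries, and part of it could be technical. Libraries are named by strain, treatment and the number in their label.

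Serum response factor (SRF) binds CArG boxes in the promoters of contractile genes, and the partner it carries decides which genes are read. Myocardin and the related MRTF proteins switch on the contractile program, and the MRTFs enter the nucleus when actin polymerises. KLF4 and KLF5 oppose that program or favour growth, MEF2C can drive myocardin, and TCF21 and FOXC2 belong to mesenchymal and developmental programs of the vessel wall.

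Library totals ran from 42116120 to 121573945 counts. The largest belonged to 129S6/SvEvTac AngII 5, and the other libraries had at most 61381134. Markers of smooth muscle, the labelled tissue's main cell type, were abundant in all 16 libraries, with a mean log2 CPM (counts scaled to a common library total) of the 8 markers between 10.11 and 12.1. Their score lay at 11.78 to 11.93 in C57BL/6J controls and at 10.11 to 11.34 with AngII, and all 8 markers fell there. In 129S6/SvEvTac it lay at 11.87 to 11.97 in controls and at 11.73 to 12.1 with AngII, and edgeR called 0 of 8 (1 had an unadjusted p under 0.05, DESeq2 called 0 and limma voom 1, higher). The 8 macrophage markers scored 4.132 to 4.368 in C57BL/6J controls and 5.595 to 6.672 with AngII, and all 8 rose, against 0 of 8 in 129S6/SvEvTac by edgeR (0 also at an unadjusted p under 0.05), where scores were 3.268 to 4.123 and 3.595 to 4.428. Adipocyte markers (7 of 8 higher with AngII in C57BL/6J, 0 of 8 in 129S6/SvEvTac by edgeR and at an unadjusted p under 0.05) scored highest, at 7.82, in C57BL/6J AngII 1, and ranged from 3.63 in that group and from 2.649 to 4.482 in its controls. In whole tissue, fewer cells of a type and less RNA per cell cannot be told apart, and the part of these cell types in the results below was not tested unless a value is given.

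Promoter sequences are shown for Srf and Klf4, the 2 factors whose response to AngII differed between the strains. They are the 250 bases before the RefSeq start (GRCm38.p6), 5′ to 3′ on the minus strand, at chr17:46556163-46556412 for Srf and chr4:55532476-55532725 for Klf4. Capitals mark the CArG boxes in Srf and the GC boxes (GGGCGG on either strand) in Klf4.
Srf: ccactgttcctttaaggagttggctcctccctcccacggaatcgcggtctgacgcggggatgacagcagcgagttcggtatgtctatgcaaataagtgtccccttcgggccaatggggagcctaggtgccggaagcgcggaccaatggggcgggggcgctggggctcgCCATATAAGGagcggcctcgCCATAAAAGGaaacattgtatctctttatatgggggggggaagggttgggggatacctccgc
Klf4: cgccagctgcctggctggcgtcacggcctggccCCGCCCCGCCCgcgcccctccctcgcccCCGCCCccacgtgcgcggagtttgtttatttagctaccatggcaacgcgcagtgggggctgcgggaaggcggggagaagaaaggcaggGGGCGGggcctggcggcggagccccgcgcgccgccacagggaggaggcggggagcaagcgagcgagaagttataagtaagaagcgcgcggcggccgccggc

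Srf carried 2 CArG boxes, from 82 to 73 and from 62 to 53 bases before its start, with an ETS core (CCGGAA on either strand), the motif of the ternary complex factors, from 122 to 117 bases before it. RefSeq windows of 250 bases before to 50 after the start were matched for 6 of the 9 factors (Srf, Mrtfa, Mrtfb, Klf4, Mef2c and Tcf21), with 11 starts in all. No other window among them held a CArG box. Of all 32851 windows, 1.63% held one, and 14.9% held an ETS core. Klf4 had 4 GC boxes, of which a pair overlaps by 1 base, and 35.7% of all windows held at least 1. A MEF2 site, present in 3.19% of windows, was found at 1 of the 3 Mrtfb starts, and at none of the 3 Mef2c starts. An MCAT element (CATTCC on either strand, in 14.7% of windows) lay at 1 Mrtfb start and 1 Mef2c start. These matches describe the letters in the window and do not show binding.

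**Figure D1:**
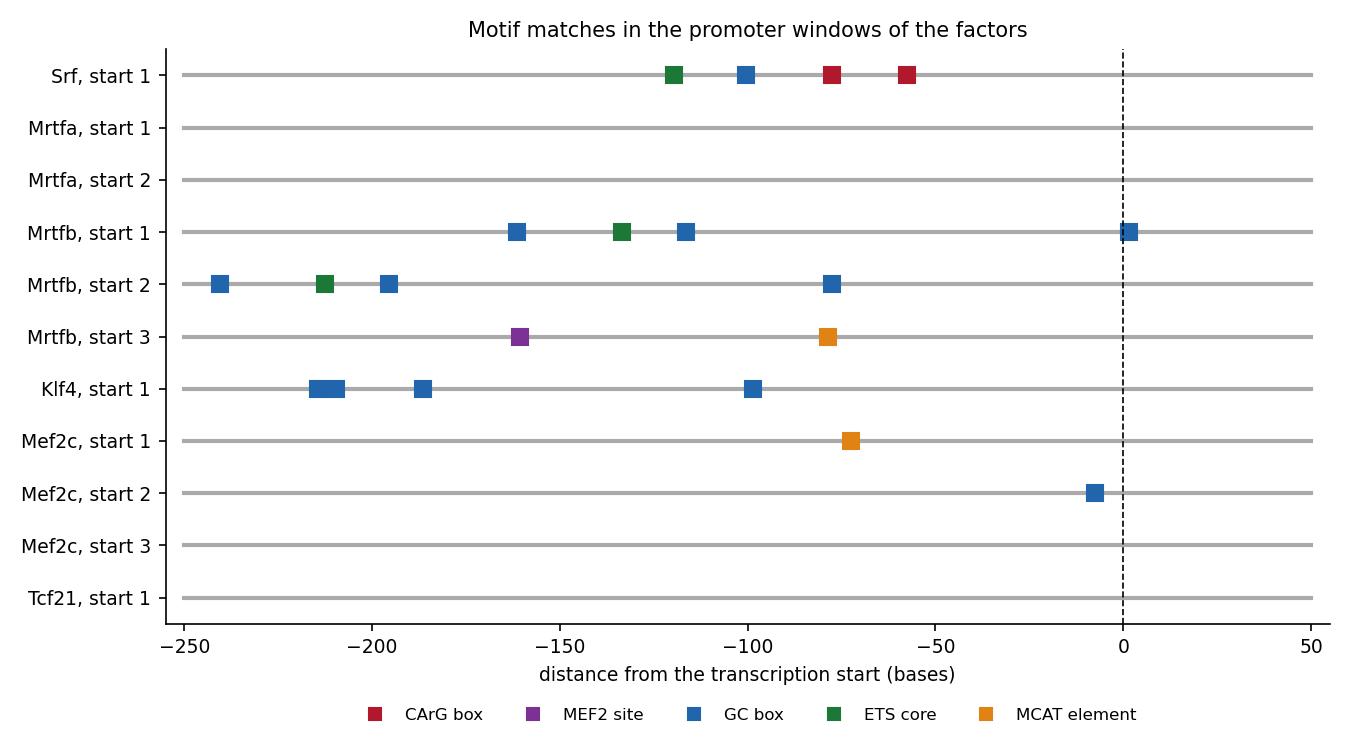
Motif matches in the promoter windows of the 6 factors with a RefSeq window, by distance in bases from the transcription start (dashed line); each grey line is 1 start and each square 1 match. The 2 CArG boxes (red) lie in the Srf window alone, and Klf4 carries 4 GC boxes (blue), the 2 farthest overlapping.

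The level of each factor per kilobase of exon put Srf first in both control groups. In C57BL/6J controls Srf stood at 54.5 ± 1.6 CPM per kb (SD, n = 4), with Klf4 (25.0 ± 5.0) and Foxc2 (24.9 ± 2.8) next and overlapping each other. Myocd followed at 10.9 ± 2.1 CPM per kb, then Mrtfb (6.66 ± 0.43), Mrtfa (5.10 ± 0.63) and Mef2c (2.51 ± 0.22), each without overlap with the next. Tcf21 (0.393 ± 0.115) and Klf5 (0.280 ± 0.054) came last and overlapped each other. This order depends on the exon lengths, which pool all annotated exons of a gene (15715 bases for Mef2c). Before division by length, Mef2c lay above Mrtfa, at 39.4 against 31.2 CPM in C57BL/6J controls and 50.9 against 32.6 CPM in 129S6/SvEvTac controls. The 129S6/SvEvTac controls had the same order down to Mef2c, with Srf at 49.9 ± 0.99 and Klf4 at 25.7 ± 1.4 CPM per kb. There Klf5 (0.660 ± 0.067) lay above Tcf21 (0.207 ± 0.087) without overlap, and the neighbouring Myocd and Mrtfb, and Mrtfb and Mrtfa, overlapped. With AngII the order kept Srf first in 129S6/SvEvTac, at 45.8 ± 3.0 CPM per kb against 28.2 ± 3.1 for Klf4. In C57BL/6J with AngII it turned: Klf4 stood at 50.5 ± 6.3 CPM per kb, above Srf at 31.9 ± 6.3 in every library.

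**Figure D2:**
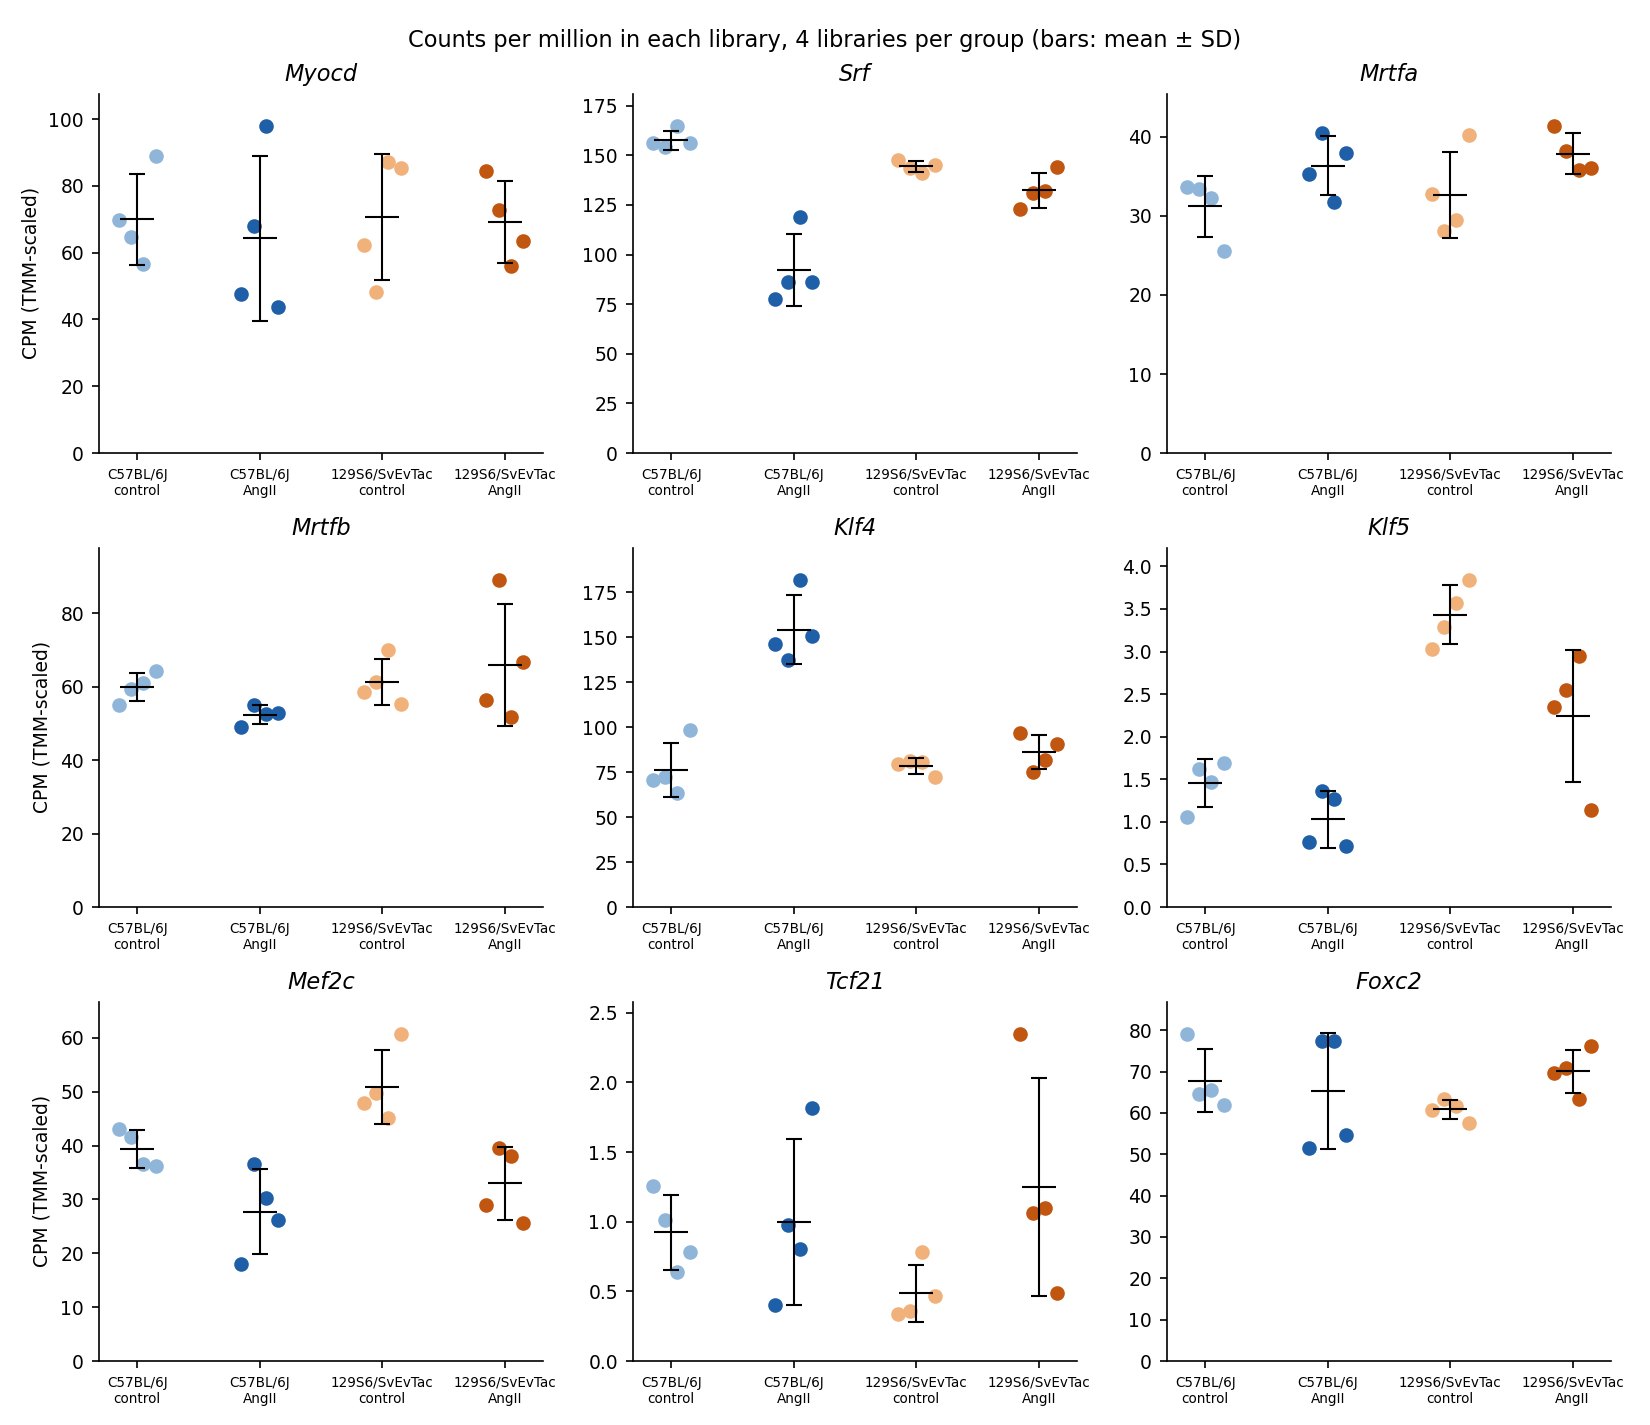
CPM (vertical axis) of each factor in the 16 libraries, by group; points are libraries and bars are the mean and SD of 4. Srf is lowest and Klf4 highest in the C57BL/6J AngII libraries, which do not overlap any other group for either gene.

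AngII changed 3 of the 9 factors in C57BL/6J at a Benjamini-Hochberg adjusted p below 0.05 (edgeR quasi-likelihood test over all 17125 genes). Klf4 rose, and Srf and Mef2c fell. Of all tested genes 38.9% were called in this comparison, 21.8% higher and 17.1% lower, so a count of 3 of 9 is near the background. In 129S6/SvEvTac AngII changed 1 factor, Mef2c, which fell, where 12.2% of genes were called, 7.71% higher and 4.47% lower. The AngII effects differed between the strains for 2 factors, Klf4 and Srf, against 9.96% of genes called, 5.34% with a higher and 4.62% with a lower effect in C57BL/6J. The median log2 fold change of the 9 was -0.12 in C57BL/6J and 0.11 in 129S6/SvEvTac, beside 0.01 and 0.00 over all genes. The comparisons share libraries, as both strain differences and both AngII effects use the same 4 groups.

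**Figure D3:**
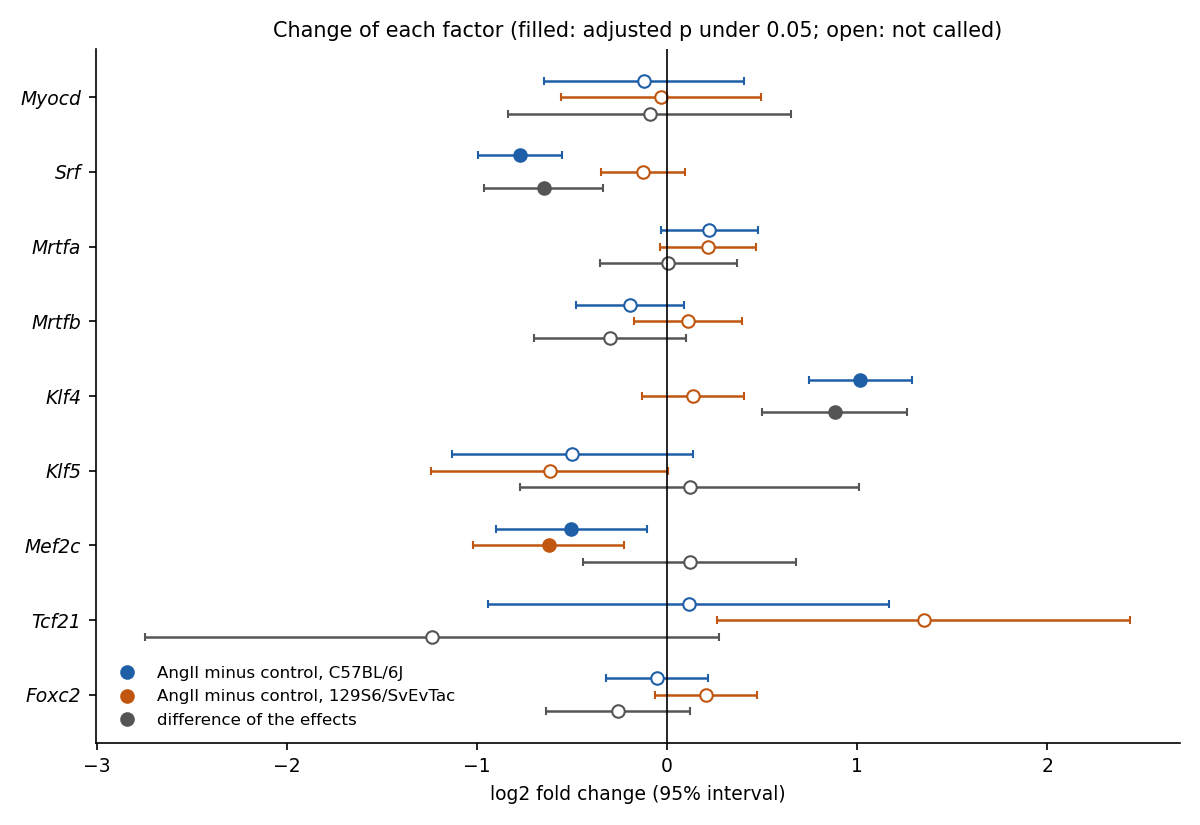
Log2 fold change (horizontal axis) with its 95% interval for AngII against control in C57BL/6J (blue) and 129S6/SvEvTac (orange), and for the difference of the effects (grey). Filled points passed the adjusted p of 0.05. Srf and Klf4 have filled blue and grey points on opposite sides of 0, and Mef2c lies below 0 in both strains.

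Srf encodes the DNA-binding partner on which the coactivators depend. Its C57BL/6J controls 1, 2, 3 and 5 had 156, 154, 165 and 156 CPM, and the AngII libraries 1, 2, 3 and 5 of that strain had 77.5, 86.2, 119 and 86.1 CPM. The 129S6/SvEvTac controls 1 to 4 had 148, 144, 141 and 145 CPM, and the AngII libraries 1, 2, 4 and 5 had 123, 131, 132 and 144 CPM. All 4 C57BL/6J AngII libraries were below every other library, with AngII 3 the closest, while the 129S6/SvEvTac groups overlapped. In C57BL/6J Srf fell by 0.77 on the log2 scale (SE 0.10, 1.71-fold lower, adjusted p = 4.468e-05). In 129S6/SvEvTac its log2 fold change was -0.13 (SE 0.10, 95% interval -0.35 to 0.10, adjusted p = 0.4958). The 2 effects differed by -0.65 (SE 0.15, 95% interval -0.96 to -0.34, adjusted p = 0.01425).

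Within the C57BL/6J AngII group the order of Srf was that of the smooth muscle markers at its ends. AngII 1 had the lowest Srf, 77.5 CPM, and the lowest smooth muscle score, 10.11, and AngII 3 had the highest of both, 119 CPM and 11.34. The other 2 libraries had scores of 10.55 and 10.63, with 86.2 and 86.1 CPM of Srf. With the adipocyte score as a covariate, Srf still fell by 0.62 (adjusted p = 0.001699). In all 16 fits that left out 1 library and all 11 other settings its adjusted p in C57BL/6J stayed below 0.05, and the fold change lay between -0.91 and -0.62.

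Myocd, the cardiac and smooth muscle coactivator of SRF, was not called in any comparison. It was measured at 69.8, 64.8, 56.7 and 88.8 CPM in C57BL/6J controls and at 47.7, 67.9, 97.9 and 43.6 CPM with AngII. In 129S6/SvEvTac the controls had 62.3, 48.1, 87.1 and 85.5 CPM and the AngII libraries 84.5, 72.6, 56.1 and 63.5 CPM. All groups overlapped, and the C57BL/6J AngII libraries spread most, from AngII 5 at the bottom to AngII 3 at the top. The log2 fold change with AngII was -0.12 in C57BL/6J (95% interval -0.65 to 0.40, adjusted p = 0.7252) and -0.03 in 129S6/SvEvTac (-0.56 to 0.49, adjusted p = 0.9575). The intervals therefore include changes of up to about 0.65 on the log2 scale. The level of Myocd per level of Srf, both per kb, was 0.155 to 0.256 in C57BL/6J controls and 0.228 to 0.371 with AngII, and in 129S6/SvEvTac it was 0.151 to 0.278 and 0.191 to 0.310.

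Mrtfa and Mrtfb encode the coactivators that couple actin to SRF. Mrtfa ran from 25.5 to 33.6 CPM in C57BL/6J controls, with control 5 alone below 32, and from 31.8 to 40.4 CPM with AngII. In 129S6/SvEvTac it ran from 28.0 to 40.2 CPM in controls and from 35.9 to 41.4 CPM with AngII. The groups overlapped in each strain. Its log2 fold change was 0.22 in both strains (SE 0.12, adjusted p = 0.1584 in C57BL/6J and 0.2809 in 129S6/SvEvTac), and the difference of the effects was 0.01 (95% interval -0.35 to 0.37, adjusted p = 0.9933). The Mrtfa exons share 10 bases with the opposite-strand gene Sgsm3.

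Mrtfb stood at 54.9 to 64.2 CPM in C57BL/6J controls and at 48.9 to 54.9 CPM with AngII. Those libraries met without overlapping, and the log2 fold change of -0.19 (95% interval -0.48 to 0.09) was not called, with an adjusted p of 0.2718. In 129S6/SvEvTac it ran from 55.3 to 69.8 CPM in controls and from 51.7 to 88.9 CPM with AngII, where AngII 2 stood alone at the top. The log2 fold change there was 0.11 (95% interval -0.18 to 0.39, adjusted p = 0.6761), and -0.06 when libraries were scaled by total counts alone. Mrtfb shares 162 exon bases with the antisense gene Gm15738, and since the strandedness of the counting is not given in the sources used here, its level is uncertain by those reads.

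Klf4 encodes a zinc finger factor that represses SRF and myocardin targets in smooth muscle and is also made by endothelial cells and macrophages. The C57BL/6J controls 1, 2, 3 and 5 had 70.8, 72.1, 63.6 and 98.4 CPM, and the AngII libraries 1, 2, 3 and 5 had 146, 138, 182 and 151 CPM. In 129S6/SvEvTac the controls 1 to 4 had 79.5, 81.3, 80.7 and 72.0 CPM, and the AngII libraries 1, 2, 4 and 5 had 96.7, 75.3, 81.7 and 90.5 CPM. All 4 C57BL/6J AngII libraries were above all 12 others, and the 129S6/SvEvTac groups overlapped. Klf4 rose 2.02-fold in C57BL/6J (log2 fold change 1.02, SE 0.13, adjusted p = 2.508e-05). In 129S6/SvEvTac its log2 fold change was 0.14 (SE 0.13, 95% interval -0.13 to 0.40, adjusted p = 0.5589), and -0.02 when libraries were scaled by total counts alone. The difference of the effects was 0.88 (SE 0.18, 95% interval 0.50 to 1.26, adjusted p = 0.008327).

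Among the C57BL/6J AngII libraries, Klf4 was highest in AngII 3, which had the highest smooth muscle score and the lowest macrophage score, 5.595, of the 4. The endothelial score was 5.581 to 5.668 in C57BL/6J controls and 5.88 to 6.253 with AngII, without overlap (2 of 8 markers rose and 1 fell). In 129S6/SvEvTac it was 5.205 to 5.876 and 5.647 to 6.974, with overlap. There 2 of 8 endothelial markers also rose and 0 fell by edgeR (0 also at an unadjusted p under 0.05). The part of endothelial cells in the rise of Klf4 was not tested. In AngII 2, 1 and 5, with macrophage scores of 5.998, 6.55 and 6.672, Klf4 stood at 138, 146 and 151 CPM. It thus rose with that score over these libraries, with AngII 3 apart, and the part of macrophages was not tested. Fitted with the adipocyte score, the log2 fold change of Klf4 was 1.12 (adjusted p = 0.0002487). The call held in all 16 fits without 1 library and in all 11 other settings, with values from 0.92 to 1.15. The ratio of Klf4 to Srf, both per kb, was 0.366 to 0.598 in C57BL/6J controls and 1.45 to 1.79 with AngII. In 129S6/SvEvTac it was 0.471 to 0.543 in controls and 0.546 to 0.747 with AngII. Klf4 exceeded Srf in the 4 C57BL/6J AngII libraries alone.

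**Figure D4:**
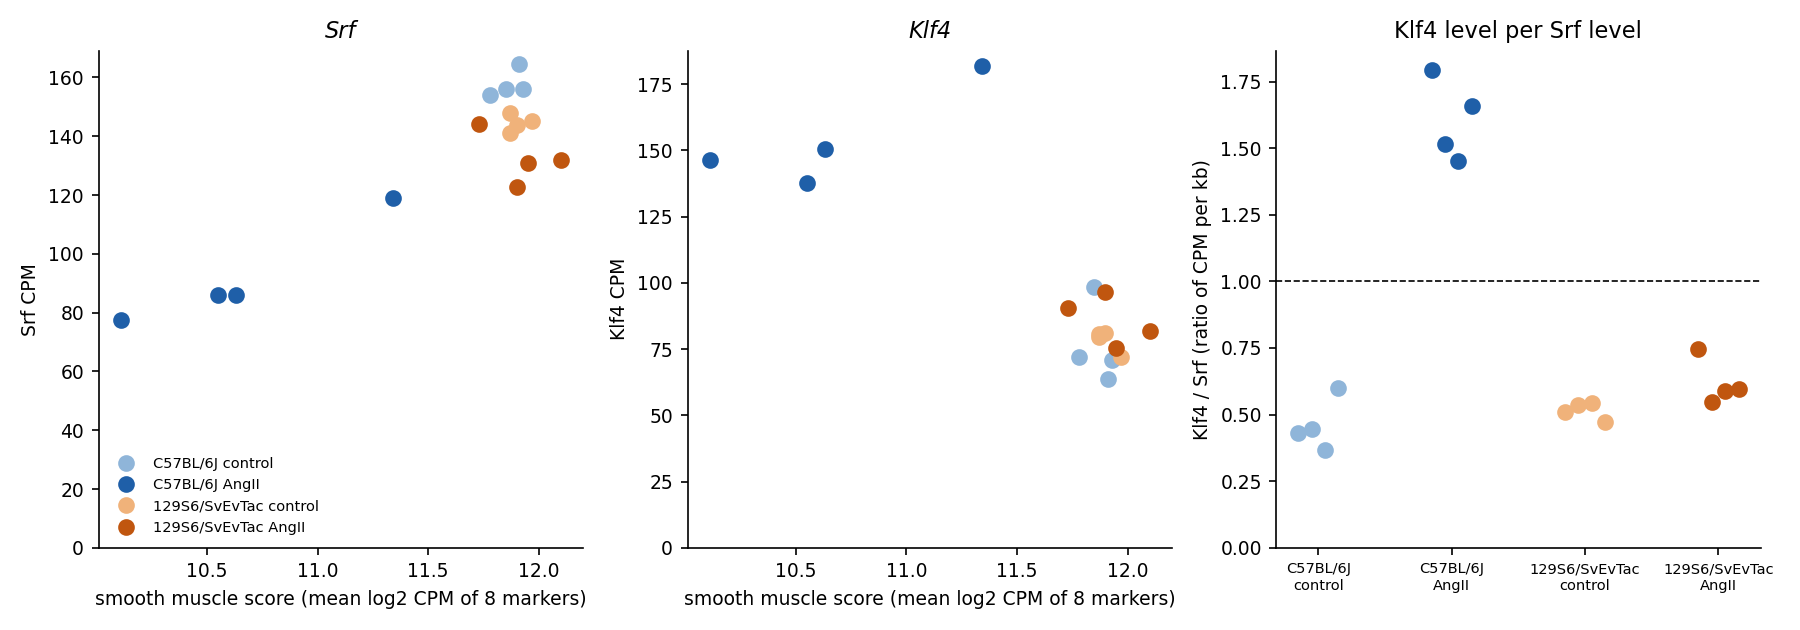
CPM of Srf (left) and Klf4 (middle) against the smooth muscle score, the mean log2 CPM of 8 markers, in the 16 libraries, and the ratio of Klf4 to Srf per kb by group (right; dashed line at 1). The C57BL/6J AngII libraries (dark blue) have smooth muscle scores of 10.11 to 11.34 and ratios of 1.45 to 1.79, and the other 12 libraries have ratios below 0.75.

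Klf5, a factor linked to smooth muscle growth, was near the bottom of the range, with 38 to 175 counts per library. It differed between the strains without AngII: the C57BL/6J controls had 1.06, 1.62, 1.46 and 1.69 CPM and the 129S6/SvEvTac controls 3.03, 3.29, 3.57 and 3.84 CPM. These groups did not overlap, and Klf5 was 2.36-fold lower in C57BL/6J (log2 fold change -1.24, SE 0.30, adjusted p = 0.01328). This call was lost under the replicate block (log2 fold change -1.03, adjusted p = 0.05849). With AngII the libraries had 0.764, 1.36, 1.27 and 0.722 CPM in C57BL/6J and 2.35, 2.55, 2.94 and 1.14 CPM in 129S6/SvEvTac. Those groups overlapped through 129S6/SvEvTac AngII 5, and Klf5 was 2.17-fold lower in C57BL/6J (log2 fold change -1.12, SE 0.30, adjusted p = 0.009904). The call with AngII was lost with limma voom (adjusted p = 0.07646) and when only the groups compared were fitted (0.06173). AngII did not give a call for Klf5 in either strain, with log2 fold changes of -0.50 (95% interval -1.13 to 0.13) in C57BL/6J and -0.62 (-1.24 to 0.01) in 129S6/SvEvTac. The 129S6/SvEvTac AngII libraries were all below their controls, and with limma voom that change was called (log2 fold change -0.84, adjusted p = 0.02505).

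Mef2c, a MADS-box factor related to SRF, fell with AngII in both strains. The C57BL/6J controls had 43.1, 41.7, 36.6 and 36.1 CPM and the AngII libraries 17.9, 36.7, 30.2 and 26.2 CPM, with an overlap through AngII 2. In 129S6/SvEvTac the controls had 47.9, 49.7, 45.2 and 60.7 CPM and the AngII libraries 28.9, 39.6, 38.0 and 25.7 CPM, with no overlap. It fell by 0.50 on the log2 scale in C57BL/6J (SE 0.19, 1.42-fold lower, adjusted p = 0.04293) and by 0.62 in 129S6/SvEvTac (SE 0.19, 1.54-fold lower, adjusted p = 0.03995). The effects of AngII differed by 0.12 (95% interval -0.44 to 0.68, adjusted p = 0.8293), an interval that holds differences of either sign.

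Both Mef2c calls lay close to the threshold. In C57BL/6J the call was lost in 9 of 16 fits without 1 library. These were C57BL/6J AngII 1, 3 and 5, C57BL/6J controls 1, 2 and 3, 129S6/SvEvTac AngII 1, and 129S6/SvEvTac controls 1 and 2. The adjusted p over the omissions ran from 0.01125 to 0.1147, the highest without AngII 1, which had the lowest Mef2c and the highest adipocyte score, and where the log2 fold change was -0.34. With the adipocyte score as a covariate it was -0.25 (adjusted p = 0.4358). The call was also lost with no filter on low counts (adjusted p = 0.05779) and when only the groups compared were fitted (0.07326). In 129S6/SvEvTac the call was lost in 8 of 16 omissions (C57BL/6J controls 2 and 5, 129S6/SvEvTac AngII 1 and 5, and the 4 controls of that strain), with an adjusted p from 0.01043 to 0.1069, and it held in all 11 other settings. Without C57BL/6J AngII 1 and 129S6/SvEvTac AngII 5 together, the change in C57BL/6J had an adjusted p of 0.08259.

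Tcf21, a factor of epicardial and fibroblast lineages, was the other low member, with 15 to 108 counts per library. Its CPM ran from 0.642 to 1.26 in C57BL/6J controls, from 0.402 to 1.81 with AngII, from 0.339 to 0.781 in 129S6/SvEvTac controls and from 0.489 to 2.35 with AngII. All groups overlapped. In 129S6/SvEvTac, where 129S6/SvEvTac AngII 1 was highest and AngII 5 lowest, the log2 fold change was 1.35 (95% interval 0.26 to 2.44) and did not pass the test (adjusted p = 0.1024). It had an adjusted p of 0.03742 without 129S6/SvEvTac AngII 5 and C57BL/6J AngII 1. In C57BL/6J the value was 0.11 (95% interval -0.94 to 1.17, adjusted p = 0.882) and the interval is wide at this depth. Of the 9 markers of adventitial fibroblasts, 4 rose and 1 fell with AngII in C57BL/6J, and 1 rose in 129S6/SvEvTac.

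Foxc2, a forkhead factor of vessel and lymphatic development, was among the more abundant members and was not called in any comparison. Its libraries ran from 62.0 to 79.0 CPM in C57BL/6J controls and from 51.6 to 77.3 CPM with AngII, where AngII 1 and 5 were low and AngII 2 and 3 high. In 129S6/SvEvTac it ran from 57.7 to 63.3 CPM in controls and from 63.5 to 76.3 CPM with AngII, without overlap. The log2 fold changes were -0.06 (95% interval -0.32 to 0.21, adjusted p = 0.7571) in C57BL/6J and 0.20 (-0.07 to 0.47, adjusted p = 0.3429) in 129S6/SvEvTac.

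Between the strains, 1 of 9 factors (Klf5, lower in C57BL/6J) was called in controls, where 10.4% of genes were called, 5.35% higher and 5.06% lower in C57BL/6J. With AngII 3 of 9 were called, Klf4 higher and Srf and Klf5 lower in C57BL/6J, against 31.3% of genes, 16.8% higher and 14.6% lower. Klf4 was 1.79-fold higher in C57BL/6J with AngII (log2 fold change 0.84, SE 0.13, adjusted p = 0.0001595) and differed by -0.04 in controls (95% interval -0.31 to 0.23). Srf was 1.44-fold lower with AngII (log2 fold change -0.52, SE 0.10, adjusted p = 0.001379). In controls its C57BL/6J libraries were all above those of 129S6/SvEvTac, by 0.13 (95% interval -0.09 to 0.35, adjusted p = 0.5409), which was not called. Mrtfb was lower by 0.33 in C57BL/6J with AngII (95% interval -0.62 to -0.05) with an adjusted p of 0.07097, and passed without 129S6/SvEvTac AngII 4 (0.02751). Mef2c in controls was lower in all C57BL/6J libraries (log2 fold change -0.37, adjusted p = 0.2588), and was called when only those groups were fitted (0.03172).

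For each factor the 3 genes with the closest profile were named by the root mean square difference of centred log2 CPM over the 16 libraries, among genes with an SD of at least 0.2. Srf had the closest neighbours, Bcl9 (0.086), Peli2 (0.089) and Nacc2 (0.099), against a median of 0.574 over all such genes. Klf4 was nearest to Tlnrd1 (0.165), Snx8 (0.174) and Ugcg (0.182), with a median of 0.647. Mef2c was nearest to Garem1 (0.194), Nt5c3b (0.194) and Kcnma1 (0.207), and Myocd to Atp8b1, Rnf19a and Bag2 (0.208 to 0.216). For Mrtfb the nearest were Ppp1r13b, Fam3c and Ctnnb1 (0.127 to 0.135), for Mrtfa Zc3hav1l, Rpn2 and Nol9 (0.141 to 0.148), and for Foxc2 Ago3, Azin1 and Otud7b (0.126 to 0.142). The low factors had looser neighbours: Airn, Fam81a and Mtmr7 for Klf5 (0.324 to 0.358), and Slc10a7, Sorbs2 and Dnhd1 for Tcf21 (0.504 to 0.554).

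Pathway genes around the factors were taken from 9 lists, and called genes were counted beside the share of all tested genes. Of all tested genes 21.8% were called higher and 17.1% lower with AngII in C57BL/6J, and 7.71% and 4.47% in 129S6/SvEvTac. SRF targets of the contractile apparatus had 19 of 25 genes lower and 1 higher with AngII in C57BL/6J, with a median log2 fold change of -0.95. All 8 smooth muscle markers are in this list. Lmod1, an actin nucleator, fell 2.77-fold (542 ± 184 against 1500 ± 26 CPM, SD, n = 4), and Myl6, a myosin light chain, fell 2.11-fold. Des, the intermediate filament desmin, fell 2.13-fold, and Myh11, smooth muscle myosin, went from 9704 to 3213 CPM. The gene that rose was Casq2, named after its value was seen, from 0.338 ± 0.465 to 2.71 ± 3.54 CPM (adjusted p = 0.04124), a call lost without C57BL/6J AngII 1 (0.2578) and in 5 other omissions. In 129S6/SvEvTac 2 of 25 were higher (Fhl1 and Hspb7) and 0 lower by edgeR (median 0.03). At an unadjusted p under 0.05 there was 1 lower, DESeq2 called 0 and limma voom 1. The omissions gave 1 to 4 higher, with 4 without C57BL/6J AngII 1 or AngII 3. A lower effect in C57BL/6J was called for 17 of the 25 genes (11 without 129S6/SvEvTac AngII 4), against 4.62% of all genes. Among the 21 list genes with a promoter window, 5 held a CArG box (23.8%, against 1.81% of all genes): Fhl1, Filip1l, Myl6, Myl9 and Vcl. The list was chosen as SRF targets, and SRF binds CArG boxes, so a share above that of all genes is no independent result.

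Partners and inputs of SRF moved in both directions with AngII in C57BL/6J. Of 18 tested ternary complex factors and other SRF partners, 4 were higher and 6 lower, against 21.8% and 17.1% of all genes. Elk3 rose 1.98-fold (94.1 ± 13.2 against 47.4 ± 2.2 CPM) and Elk4 1.37-fold, both ternary complex factors that compete with myocardin for SRF. Csrp1, a cytoskeletal SRF cofactor, fell 2.18-fold, and Tead3, which binds MCAT elements, fell 1.98-fold. In 129S6/SvEvTac 2 partners were higher and 0 lower by edgeR, against 7.71% and 4.47% of all genes. There 1 was lower at an unadjusted p under 0.05, DESeq2 called 0 lower and limma voom 1. The higher count moved with single libraries (0 to 2 higher over the omissions, 0 without 129S6/SvEvTac AngII 2 or any control of that strain). Fhl2, a coregulator of SRF, rose 2.98-fold in C57BL/6J and 2.20-fold in 129S6/SvEvTac. Mical2, which oxidises nuclear actin, rose 1.55-fold in 129S6/SvEvTac (879 ± 21 against 567 ± 38 CPM), and its AngII effect was lower in C57BL/6J by 0.78 on the log2 scale (adjusted p = 0.005723). Immediate early SRF targets had 5 of 14 higher and 0 lower in C57BL/6J by edgeR (0 lower also at an unadjusted p under 0.05, by DESeq2 and by limma voom). In 129S6/SvEvTac 1 was higher, and 2 without AngII 2 or control 4. Egr2 rose 7.16-fold in C57BL/6J and Junb 2.42-fold.

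Relatives of the other factors were counted the same way, beside 21.8% of all genes higher and 17.1% lower in C57BL/6J. In 129S6/SvEvTac these shares were 7.71% and 4.47%. In the Kruppel-like family, Klf4 and Klf5 aside, 2 of 14 were higher and 5 lower in C57BL/6J (1 to 2 and 4 to 6 over the omissions), with Klf15 down 2.67-fold from 58.1 ± 19.0 to 21.7 ± 7.8 CPM. Klf13 fell 1.31-fold in C57BL/6J and rose 1.38-fold in 129S6/SvEvTac, and its effects differed by -0.85 (adjusted p = 0.003809). The fall of Klf13 was not called with the adipocyte score as a covariate, and its rise was not called when libraries were scaled by total counts alone. In 129S6/SvEvTac 2 of the Kruppel-like family were higher and 0 lower by edgeR, where 3 were lower at an unadjusted p under 0.05, DESeq2 called 1 and limma voom 2. The higher count was 1 without 129S6/SvEvTac AngII 1 or 5 or control 2 or 3, and the lower count was 2 without C57BL/6J AngII 2 or 3 and 1 without AngII 1. The MEF2 family and its repressors had 4 of 15 higher and 5 lower in C57BL/6J. Hdac5, a class IIa deacetylase that represses MEF2, fell 1.59-fold and Cabin1, another MEF2 repressor, fell 1.73-fold. Nfatc2 rose 4.78-fold in C57BL/6J and 2.23-fold in 129S6/SvEvTac, and Rcan1, a calcineurin regulator induced by NFAT, rose 4.51-fold and 2.16-fold.

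Of all genes 21.8% were called higher and 17.1% lower with AngII in C57BL/6J, and 7.71% and 4.47% in 129S6/SvEvTac. Mesenchymal and epicardial transcription factors, the group around Tcf21, had 14 of 22 higher and 1 lower in C57BL/6J. Their median log2 fold change was 0.70. Runx1 rose 7.98-fold (36.4 ± 5.2 against 4.55 ± 0.90 CPM), Snai1 7.22-fold and Ahr 5.29-fold, and Osr1 fell 2.57-fold. In 129S6/SvEvTac 0 were lower by edgeR, with 1 at an unadjusted p under 0.05, 1 by DESeq2 and 1 by limma voom. There 3 were higher (1 without any 1 of 129S6/SvEvTac AngII 1, 4 and 5 and controls 1, 2 and 4), among them Scx, which rose 3.35-fold. The forkhead family beside Foxc2 had 6 of 14 lower and 1 higher in C57BL/6J (2 higher without C57BL/6J AngII 3). Foxc1, the close relative of Foxc2, fell 1.79-fold from 136 ± 13 to 76.1 ± 20.7 CPM, and the gene that rose was Foxm1, a factor of dividing cells. Notch and TGF-beta inputs had 2 of 19 higher and 4 lower in C57BL/6J and 5 higher and 2 lower in 129S6/SvEvTac (3 higher without 129S6/SvEvTac control 3), with Heyl, a Notch target, down 3.33-fold in C57BL/6J. Modulated smooth muscle markers had 12 of 14 higher in C57BL/6J and 8 of 14 in 129S6/SvEvTac. A higher effect in C57BL/6J was called for 7, against 5.34% of all genes. In this list 2 genes, Lum and Dcn, are also among the adventitial fibroblast markers, and which cells carried these changes was not tested. Col8a1, a matrix collagen, rose 38.9-fold and 6.41-fold, and Lgals3, also a macrophage gene, rose 5.59-fold and 3.52-fold.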

How the data were processed

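RNA-seq libraries of descending thoracic aorta were aligned with HISAT2 to GRCm38 (mm10) and quantified with StringTie against Gencode, per the labels' protocols. The submitters' processing notes list DESeq2 1.26.0 and R 3.6.2 without a role. The authors deposited 1 table of expected counts, all whole numbers, with a column for each of 16 libraries. Neither the Gencode release nor the strand setting is stated. Names and exon lengths came from GENCODE M21, which matched 52489 of 52636 genes.

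Counts were tested with edgeR 4.0.16 (R 4.3.3): filterByExpr at a minimum count of 10, TMM scaling, and a robust quasi-likelihood fit with 1 mean per group over all libraries. The 5 contrasts were adjusted by Benjamini-Hochberg over 17125 genes. Standard errors came from the fold change and F statistic. CPM are the counts over the TMM-scaled library total, and scores use log2 CPM with a prior count of 2. The pipeline was tested on simulated counts. From each list and comparison the rule names up to 4 called genes with the lowest p and 5 CPM or more in the group where they are higher. The text gives some of these, for length. Myh11 and Casq2 lie outside this rule and were chosen after their values were seen. Promoter windows and motifs use RefSeq on GRCm38.p6. Some results are not reported here. The members and lists were chosen with earlier results of these data known.

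Alternatives were RLE scaling, library size alone, no filter, 1 CPM in 4 samples, DESeq2 1.42.0, limma 3.58.1 voom with quality weights, fits of the compared groups alone, a replicate block, an adipocyte or muscle score as covariate, 2 libraries left out, and each library left out.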

Additional observations from a re-analysis of the deposited data

Results flagged for a closer look

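Mrtfa stood at 25.5 CPM in C57BL/6J control 5, below the other 3 controls of that group (32.2 to 33.6 CPM) by more than the 95% limit of Dixon's test for 4 samples allows. It was the 1 such case among 36 sets of 4 libraries (9 factors in 4 groups), and chance gives about 1 in 20.

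The AngII effect differed between the strains for Srf, by -0.65 on the log2 scale, and for Klf4, by 0.88, each by a test of the difference itself (edgeR, adjusted p = 0.01425 and 0.008327). Macrophage and smooth muscle markers differed in the same comparison (8 of 8 higher and 7 of 8 lower in effect in C57BL/6J), and their part in both differences was not tested.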

How the results depend on the processing

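The calls of Srf and Klf4, in C57BL/6J with AngII, in the difference of the effects and between the strains with AngII, held in every setting run. Klf5 and Tcf21 had 15 to 175 counts per library, which limits their precision. Replicate numbers are shared between groups, but same-numbered libraries did not deviate together (correlations from -0.06 to 0.146 over 19 pairs), so the numbers were not used as pairs.

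Counts of called genes that moved by over 1.5 times were, for AngII in 129S6/SvEvTac (2087), 3324 with limma voom. For the difference of effects (1706) they were 2685 with DESeq2, 2670 with voom, 1007 with the adipocyte covariate, 1049 without C57BL/6J AngII 1 and 129S6/SvEvTac AngII 5, and 1039 (without 129S6/SvEvTac control 2) to 2990 (without C57BL/6J AngII 3) without single libraries. For the strains in controls (1783) they were 3209 with voom and 2772 with only the groups compared. Scaling by library size alone turned the share of higher calls with AngII from 56.1% to 45.5% in C57BL/6J and from 63.3% to 25.2% in 129S6/SvEvTac, where the median of all genes moved to -0.16.

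Factors called in 129S6/SvEvTac with AngII went from 1 to 2 with voom and without those 2 libraries, and to between 0 and 1 without single libraries. Between control strains they went from 1 to 2 with only the groups compared. Under the replicate block they were 0, since Klf5 had an adjusted p of 0.05849, and under that block Mrtfb with AngII between the strains was called (adjusted p = 0.01953).

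Some estimates that were not called changed sign without a call, and the cause was not tested. With the adipocyte covariate, AngII in C57BL/6J gave 0.35 for Myocd, 0.080 for Klf5 (-0.50 in the main fit) and 0.087 for Foxc2. Myocd had 0.13 in 129S6/SvEvTac, and the differences were 0.22 for Myocd and -0.055 for Mrtfa. With voom, Myocd had 0.068 for AngII in 129S6/SvEvTac and 0.064 between control strains, and Mrtfa -0.045 for the difference and 0.0058 between control strains. Tcf21 had 0.019 between strains with AngII (-0.31 in the main fit). With the block, Myocd had 0.083 and 0.055 in the same comparisons, Mrtfa -0.0022 for the difference, 0.0049 between control strains and 0.0028 with AngII, and Klf5 -0.021 for the difference. With library size alone, Mrtfb (-0.063) and Klf4 (-0.024) turned for AngII in 129S6/SvEvTac, and Mrtfa (0.0028) between strains with AngII. Without those 2 libraries, Foxc2 had 0.045 for AngII in C57BL/6J and 0.059 between strains with AngII, and Myocd 0.011 for the difference.

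Without single libraries, the ranges that crossed 0 were as follows. Myocd ran from -0.39 to 0.010 (AngII, C57BL/6J), -0.20 to 0.080 (AngII, 129S6/SvEvTac), -0.34 to 0.073 (difference), -0.17 to 0.10 (strains, control) and -0.36 to 0.046 (strains, AngII). Mrtfa ran from -0.093 to 0.096 (difference), -0.14 to 0.048 (strains, control) and -0.098 to 0.027 (strains, AngII). Mrtfb ran from -0.085 to 0.18 (AngII, 129S6/SvEvTac) and -0.081 to 0.040 (strains, control), and Klf4 from -0.19 to 0.036 (strains, control). Tcf21 ran from -0.35 to 0.39 (AngII, C57BL/6J) and -0.76 to 0.22 (strains, AngII). Foxc2 ran from -0.15 to 0.046 and -0.18 to 0.014 in the same comparisons. For the difference, Klf5 ran from -0.087 to 0.30 and Mef2c from -0.023 to 0.31.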

Other observations

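Several pathway genes differed between the strains before AngII. Rbpj, the DNA-binding factor of Notch signalling, was 2.05-fold higher in C57BL/6J controls (130 ± 9 against 63.3 ± 3.1 CPM, SD, n = 4, adjusted p = 5.385e-06) and 2.19-fold higher with AngII (adjusted p = 1.577e-06). Sox9 was 5.81-fold higher in C57BL/6J controls (7.40 ± 1.72 against 1.27 ± 0.38 CPM) and Tbx20 3.14-fold higher. Of 14 immediate early SRF targets, 5 were higher in C57BL/6J controls (against 5.35% of all genes) and 11 with AngII (against 16.8%). Fos was among the 5, at 74.2 ± 14.8 against 18.4 ± 6.6 CPM in controls. The first count fell to 1 without C57BL/6J control 1 or 129S6/SvEvTac control 2, and to 3 or 2 without C57BL/6J controls 2 and 5, 129S6/SvEvTac AngII 1 and 129S6/SvEvTac controls 1 and 3. The second fell to 7 without 129S6/SvEvTac AngII 2.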
